A study of Ambystoma mexicanum with 12 samples.

Results

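Forelimb blastemas of the axolotl (Ambystoma mexicanum) that grew at the upper arm were compared with those that grew at the wrist, without drug. The comparison held 6 of the 12 RNA-seq libraries, chosen by their labels, 3 from DMSO proximal and 3 from DMSO distal blastemas. Proximal blastemas followed amputation through the upper humerus and distal blastemas followed amputation through the middle of the carpus. All animals were white (d/d), 3 months old and 5 cm long, and all were kept in water with the solvent dimethyl sulfoxide (DMSO), given from day 4 after amputation for 7 days and renewed every other day. Each library was a pool of 3 blastemas frozen at day 14. The labels do not say whether pools came from separate animals, or whether the same animals gave proximal and distal blastemas, so p-values measure only the spread between these pools. The other libraries of the study, also from distal blastemas, came from animals treated with 0.1 uM or 1 uM talarozole (TAL), an inhibitor of retinoic acid breakdown, and are used below only for the spread and as levels set beside the vehicle groups.

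A blastema is a mound of dividing cells under a wound epidermis that rebuilds what lies beyond the cut. Its cells keep a memory of their place along the limb, so an upper-arm blastema makes the whole arm and a wrist blastema makes only a hand. Retinoic acid is known to give blastema cells a more proximal identity, with the MEIS homeobox genes acting proximally and the posterior HOXA genes distally, and CYP26 enzymes break retinoic acid down.

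The deposited table lists genes by identifier alone. Of its 99081 identifiers, 56805 begin with AMEX60DD but not AMEX60DDU and were used here, and 0 of all identifiers were found in RefSeq's list of genes (assembly UKY_AmexF1_1). No gene can therefore be given a name or a role, and neither the tissue nor the amputation level could be checked against marker genes. Below, a gene means 1 identifier.

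The vehicle libraries held between 8409686 and 11122701 estimated counts in all, of which 84.1 to 90.0% fell on the identifiers used. A library had counts for 25552 to 27522 of these identifiers. The 10 genes with most counts took from 7.06% (DMSO proximal replicate 2) to 28.4% (DMSO distal replicate 1) of a library, and this share overlapped between the groups. No pair of same-group libraries agreed within sampling noise (chi-square per degree of freedom 29.7 to 167), so all 6 counted as separate samples.

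The library labelled DMSO proximal replicate 1 resembled the distal libraries, on average, more than the other proximal libraries. Its Spearman correlation of log2 CPM (counts scaled to library size in the usual way) across genes, which are not independent replicates, averaged 0.868 with the other proximal libraries and 0.896 with the distal libraries. It was the only vehicle library that resembled the opposite group more than its own. On the first principal component, which carried 34.4% of the variance, it lay at -18.8, between DMSO distal replicates 1, 2 and 3 at -88.4, -10.6 and -36.4, while DMSO proximal replicates 2 and 3 lay at 98.6 and 55.5. Pairs of distal libraries correlated at 0.862 to 0.915, pairs of proximal libraries at 0.862 to 0.875, and pairs between the groups at 0.799 to 0.909. DMSO proximal replicate 1 was as close to DMSO proximal replicates 2 and 3, at 0.862 and 0.875, as they were to each other, at 0.871. Why this library differs was not tested. The edgeR totals of genes called in the vehicle libraries, or at an unadjusted p under 0.05, are given with and without it. The same holds for the genes given by identifier, but not for every count below.

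**Figure D1:**
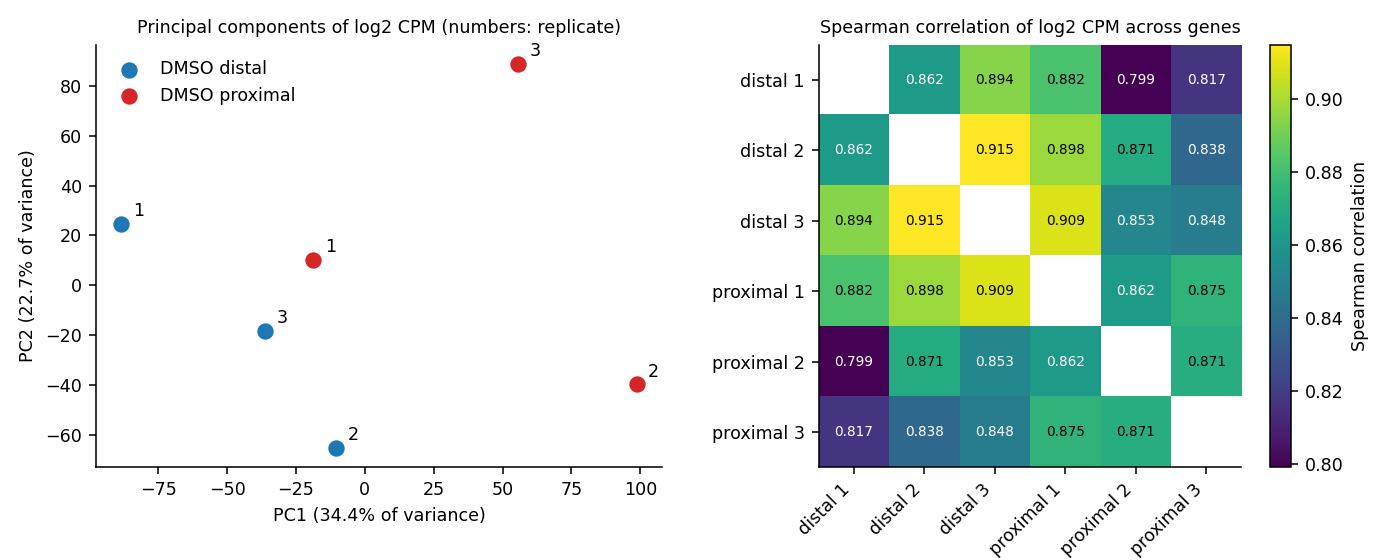
Left, the 6 vehicle libraries on the first and second principal components of log2 CPM (prior count 2), with the share of variance on each axis, coloured by group and numbered by replicate. Right, Spearman correlations of log2 CPM for each pair of libraries. DMSO proximal replicate 1 lies among the distal libraries on the first component, at -18.8, and correlates at 0.909 with DMSO distal replicate 3.

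The question of the comparison is how gene expression differs between amputation levels in regeneration under DMSO alone. Fitted on the 6 vehicle libraries alone, no gene was called. With edgeR's quasi-likelihood test, 0 of the 18160 genes tested (0%) had a Benjamini-Hochberg adjusted p under 0.05, and 1906 (10.5%) had an unadjusted p under 0.05. The lowest adjusted p of that test was 0.105, and it was shared by 24 genes, 12 higher and 12 lower in proximal blastemas. limma voom with sample quality weights also gave 0 called genes, and an unadjusted p under 0.05 in 2461, whereas the DESeq2 Wald test called 295 (1.22% of the 24106 genes to which it gave an adjusted p), 123 higher (0.51%) and 172 lower (0.714%) in proximal blastemas. A count of 0 here means that no gene passed the adjustment with 3 pools a group, not that the levels were alike.

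In the edgeR fit of the 6 libraries, unadjusted differences ran in both directions in near equal number. The balance moved with the method. There were 1156 higher and 1305 lower genes with limma voom, and 996 and 924 with edgeR on DESeq2 size factors. When edgeR was fitted on all 12 libraries there were 1779 and 1444. Of the 1906 genes, 940 (5.18% of those tested) were higher and 966 (5.32%) lower in proximal blastemas. The lower genes differed by more. Their median log2 fold change was -1.10, against 0.73 for the higher genes, 544 of them differed by over 2-fold against 299 of the higher genes, and 168 by over 4-fold against 89. When DMSO proximal replicate 1 was left out, the medians were -1.32 for the lower and 0.76 for the higher genes, and 514 lower against 165 higher genes differed by over 4-fold. Blastemas are mixed tissue, so fewer cells of a type and less RNA per cell cannot be told apart in any of these differences.

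The balance shifted with the amount of counts behind a gene. The tested genes were split by mean level into 3 equal groups. In the group with the lowest level (0.889 to 3.85 CPM) 166 were higher and 254 lower in proximal blastemas. In the middle group there were 248 and 374. In the group with the highest level (12.2 to 37188 CPM) the order turned, with 526 higher and 338 lower. Over all tested genes the median log2 fold change moved too, at -0.10, -0.07 and 0.07 from the lowest to the highest level. The shift was thus not confined to genes at an unadjusted p under 0.05, and its cause was not tested. The share of genes at an unadjusted p under 0.05 was 6.94%, 10.3% and 14.3% over these groups, from low to high, and the median standard error of the log2 fold change was 0.48, 0.28 and 0.19. The median log2 fold change of the genes at an unadjusted p under 0.05 was 0.54 for the higher and -0.89 for the lower ones in the group with the highest level, and 1.42 and -1.52 in the group with the lowest. With 5 libraries, DMSO proximal replicate 1 being absent, the split was 203 higher and 430 lower in the group with the lowest level and 1056 and 626 in the group with the highest.

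**Figure D2:**
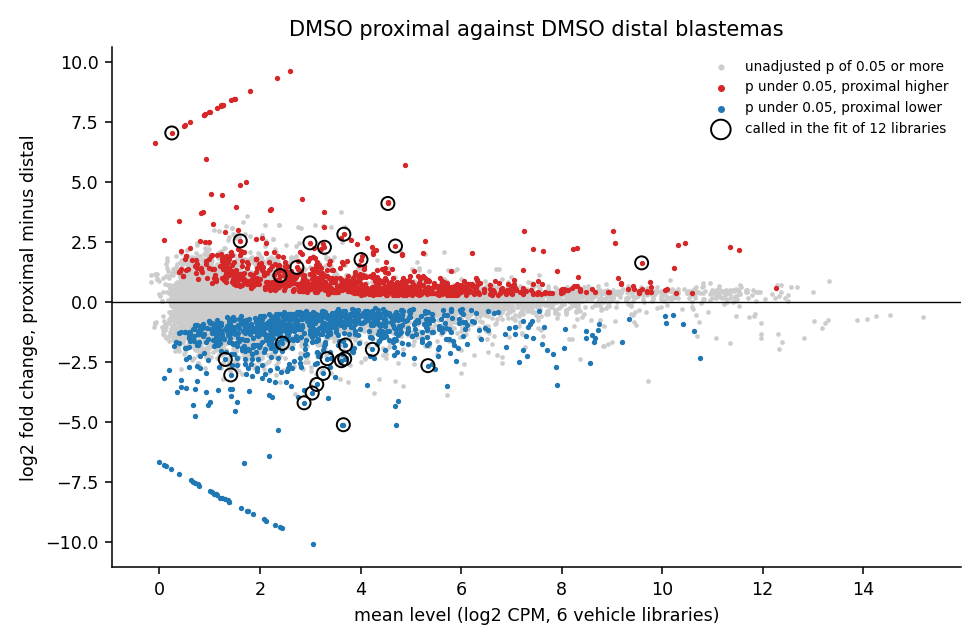
Log2 fold change (proximal minus distal) against mean log2 CPM for the 18160 genes tested in the 6 vehicle libraries. Red and blue points are the 940 higher and 966 lower genes at an unadjusted p under 0.05, and circles mark the 25 genes called when all 12 libraries were fitted. The diagonal rows of points at the left are genes at 0 counts in every library of a group, whose fitted fold depends on the prior count and is no bound.

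In many genes the groups did not overlap. Every proximal library lay above every distal library in 1764 genes (9.71% of those tested) and below in 2038 (11.2%). With 3 libraries a group, some genes separate in this way without any difference between amputation levels, and that share was not estimated. Among genes with an unadjusted p under 0.05, 851 of the 940 higher and 923 of the 966 lower ones were of this kind. The choice by p makes this likely. Presence and absence also occurred in both directions. Of the 18160 genes tested, 32 had 0 counts in all 3 proximal libraries and at least 10 in each distal library. The reverse, 0 counts in all 3 distal libraries and at least 10 in each proximal library, held in 21. In the absence of DMSO proximal replicate 1 there were 107 and 61 such genes among 19444 tested. The groups then did not overlap in 3817 higher and 3995 lower genes. Presence and absence of this sort and lack of overlap both become more frequent with fewer libraries by construction. Still, the 7812 genes without overlap were more than the 5159 to 6052 found when any of the other 5 libraries was left out. Those other fits tested 19365 to 20279 genes. Such counts depend on depth. DMSO proximal replicate 3 had the fewest counts of the 6 libraries. DMSO distal replicate 1 had the lowest TMM scaling factor, 0.829 against 0.993 in DMSO proximal replicate 3, and so the smaller effective size.

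Since no gene was called in the 6 libraries, the genes given by identifier are those with the smallest unadjusted p in each direction, among those with no overlap between the groups and a mean of at least 1 CPM in the higher group. None of the 4 passed the adjustment in that fit. They show what the separation of the amputation levels looked like, library by library, where the edgeR unadjusted p was smallest under these conditions.

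AMEX60DD012191 was lower in proximal blastemas. It stood at 15.9, 19.5 and 11.3 CPM in DMSO distal replicates 1 to 3 and at 1.47, 1.12 and 1.68 CPM in DMSO proximal replicates 1 to 3. All distal libraries lay far above all proximal libraries. The means were 15.6 ± 4.11 CPM (SD, n = 3) and 1.42 ± 0.283 CPM (SD, n = 3), a log2 fold change of -3.45 (SE 0.29), or 10.9-fold, with an edgeR unadjusted p of 2.27e-05 and an adjusted p of 0.105. The proximal levels rest on 14, 8 and 12 counts. Without DMSO proximal replicate 1 the log2 fold change was -3.46 and the edgeR adjusted p 0.122.

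AMEX60DD024290 was also lower in proximal blastemas, by a smaller fold and with a smaller standard error of the log2 fold change. It stood at 37.4, 47.5 and 34.1 CPM in DMSO distal replicates 1 to 3 and at 11.1, 9.83 and 11.1 CPM in DMSO proximal replicates 1 to 3. The proximal libraries differed little among themselves, and the groups did not overlap. The means were 39.7 ± 6.98 CPM (SD, n = 3) and 10.7 ± 0.730 CPM (SD, n = 3), a log2 fold change of -1.90 (SE 0.16), or 3.74-fold, with an edgeR unadjusted p of 2.54e-05 and an adjusted p of 0.105. With DMSO proximal replicate 1 left out the log2 fold change was -1.92 and the edgeR adjusted p 0.122.

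AMEX60DD046850 was higher in proximal blastemas. It stood at 2.20, 2.24 and 2.65 CPM in DMSO distal replicates 1 to 3 and at 12.6, 10.4 and 16.7 CPM in DMSO proximal replicates 1 to 3. The lowest proximal library was well above the highest distal library. The means were 2.36 ± 0.248 CPM (SD, n = 3) and 13.2 ± 3.21 CPM (SD, n = 3), a log2 fold change of 2.46 (SE 0.23), or 5.49-fold, with an edgeR unadjusted p of 4.80e-05 and an adjusted p of 0.105. Leaving out DMSO proximal replicate 1 gave a log2 fold change of 2.51 and an edgeR adjusted p of 0.122.

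AMEX60DD011241 had the largest fold of the 4 and was low in distal blastemas. It stood at 0.629, 0.780 and 0.589 CPM in DMSO distal replicates 1 to 3, which rest on 4, 8 and 6 counts. In DMSO proximal replicates 1 to 3 it stood at 18.4, 7.86 and 13.2 CPM, so that DMSO proximal replicate 1 was the highest library of all. The means were 0.666 ± 0.101 CPM (SD, n = 3) and 13.2 ± 5.28 CPM (SD, n = 3), a log2 fold change of 4.26 (SE 0.40), or 19.2-fold, with an edgeR unadjusted p of 4.80e-05 and an adjusted p of 0.105. Without DMSO proximal replicate 1 the log2 fold change was 3.95 and the edgeR adjusted p 0.122. All 4 genes were chosen for groups that do not overlap, with this library counted as proximal, so its place in them says nothing about it.

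The same genes differed from each other in the distal blastemas treated with talarozole. At 0.1 uM AMEX60DD012191 averaged 12.2 ± 3.51 CPM (SD, n = 3), and at 1 uM it averaged 1.01 ± 0.0766 CPM (SD, n = 3), below all 6 vehicle libraries at the higher dose. The level of AMEX60DD024290 averaged 33.5 ± 16.1 CPM (SD, n = 3) at 0.1 uM, and at 1 uM 43.1 ± 5.62 CPM (SD, n = 3), above all proximal libraries at either dose. AMEX60DD046850 was at 4.21 ± 1.94 CPM (SD, n = 3) and 5.13 ± 0.215 CPM (SD, n = 3), with all treated libraries below all proximal ones. AMEX60DD011241 was at 0.454 ± 0.176 CPM (SD, n = 3) and 0.986 ± 1.18 CPM (SD, n = 3), and 1 library of the higher dose, at 2.35 CPM, made most of that spread.

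**Figure D3:**
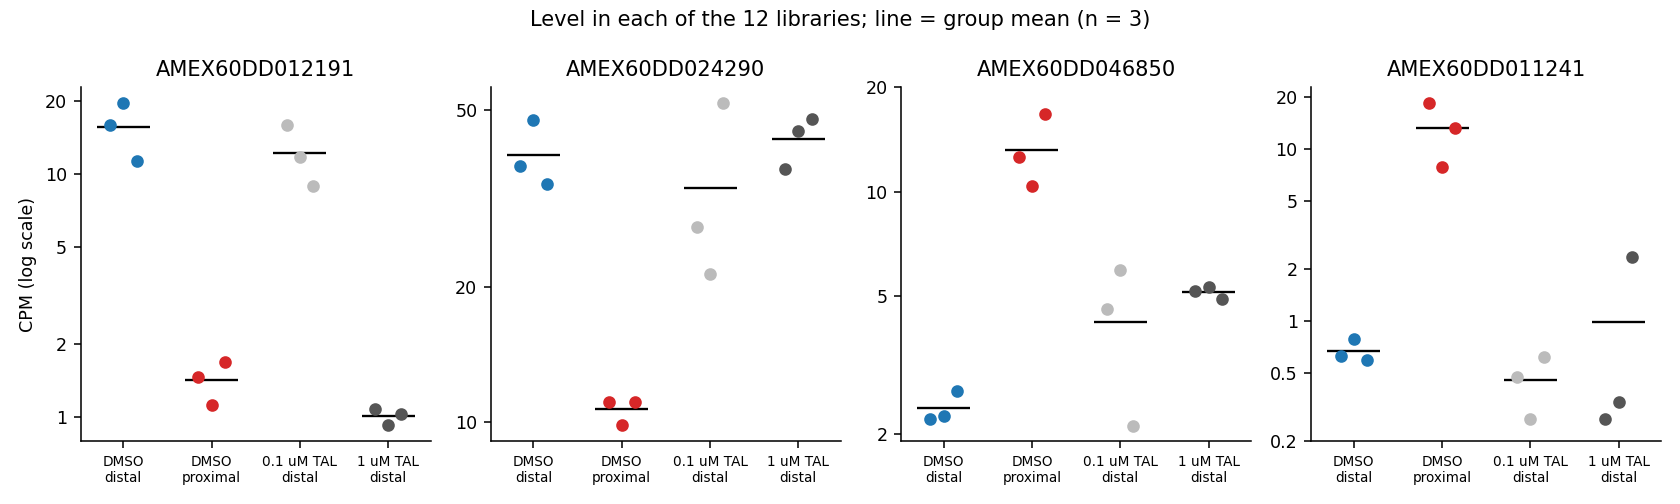
Level (CPM, log axis) of 4 genes in each of the 12 libraries, with a line at each group's mean (n = 3). The 3 proximal libraries lie apart from the 3 distal vehicle libraries in every panel, as the choice of these genes requires. At 1 uM TAL, AMEX60DD012191 is at 1.01 CPM, near its proximal mean of 1.42 CPM. AMEX60DD046850 is at 5.13 CPM, between its distal mean of 2.36 and its proximal mean of 13.2 CPM. AMEX60DD024290 is at 43.1 CPM, nearer its distal mean of 39.7 than its proximal mean of 10.7 CPM. AMEX60DD011241 is at 0.986 CPM, nearer its distal mean of 0.666 than its proximal mean of 13.2 CPM.

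With the 12 libraries in 1 fit, the vehicle groups were compared with a spread estimated from all 4 groups. The residual degrees of freedom rose from 4 to 8, and the common biological coefficient of variation was 0.548, against 0.451 in the vehicle libraries alone. In this fit 25 of 21504 genes (0.116%) passed edgeR's quasi-likelihood test at an adjusted p under 0.05, 11 with the higher level (0.0512%) and 14 with the lower level (0.0651%) in proximal blastemas. The higher genes differed by 2.15-fold or more, with a median of 5.06-fold, and 1 of them had 0 counts in every DMSO distal library. That gene was detected in every distal library treated with talarozole. The lower genes differed by 3.28-fold to 34.6-fold, with a median of 5.83-fold. AMEX60DD012191 was among them with the lowest edgeR adjusted p of all, 0.00749, and AMEX60DD046850 was called at an edgeR adjusted p of 0.0384. AMEX60DD024290 and AMEX60DD011241 were not called there, at edgeR adjusted p values of 0.0609 and 0.113. With the replicate number added to this fit as a block, edgeR called 10 genes, 8 of them among the 25.

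All 25 genes had an unadjusted p under 0.05 in the 6 vehicle libraries and no overlap between the vehicle groups, which their choice makes likely, and DESeq2 on those 6 libraries called 24 of them. Per library, the median log2 level of the 14 lower genes, centred on the 6 vehicle libraries, was 1.53, 1.24 and 0.93 in DMSO distal and -1.20, -1.41 and -1.02 in DMSO proximal replicates 1 to 3. It was 1.57, 1.11 and 0.85 at 0.1 uM TAL and -1.11, -1.09 and -1.24 at 1 uM TAL. The 11 higher genes had medians of -1.14, -1.05 and -0.94 in DMSO distal and 0.98, 0.87 and 1.31 in DMSO proximal libraries. At 0.1 uM TAL they were at -0.41, -0.17 and -0.84, and at 1 uM TAL at 0.32, 0.15 and 0.12. The vehicle groups chose these genes, so the values of those groups are a description and carry no test, and the treated libraries took part in the choice through the shared spread.

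**Figure D4:**
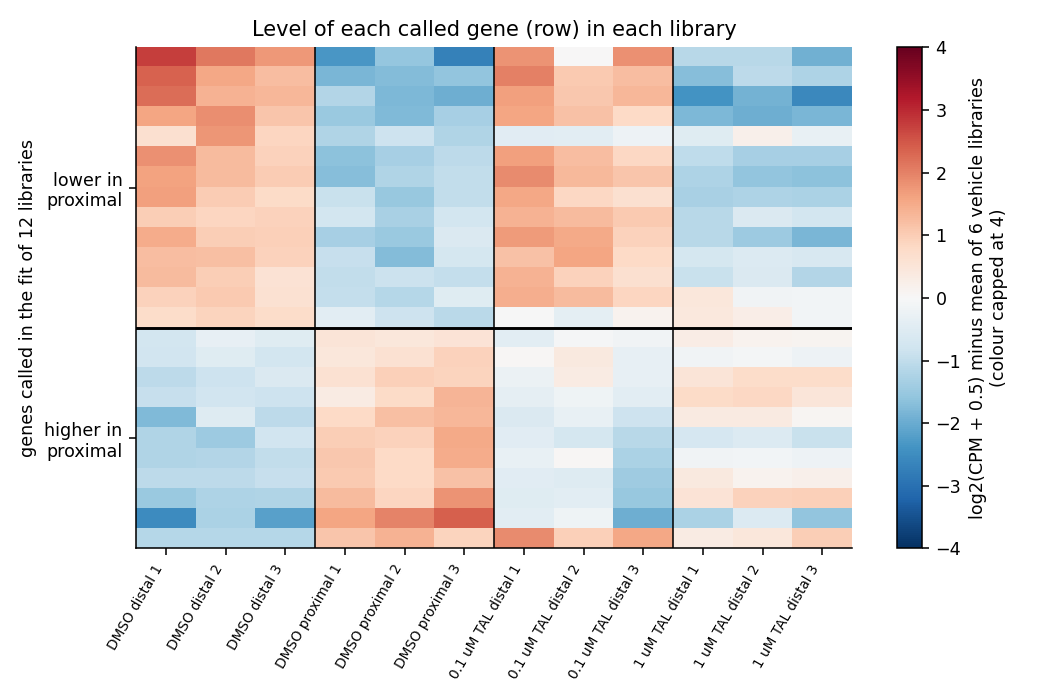
Each row is 1 of the 25 genes called between the vehicle groups in the fit of 12 libraries, and each column is a library. Colour gives log2(CPM + 0.5) minus the gene's mean over the 6 vehicle libraries. The 14 genes lower in proximal blastemas are above the line and the 11 higher genes are under it. The vehicle groups do not overlap in any row.

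The count of 25 rested on single libraries. Without DMSO proximal replicate 1, edgeR called 372 of 23487 genes (1.58%), 182 higher and 190 lower in proximal blastemas, and these included all 25. Without DMSO distal replicate 1 or DMSO proximal replicate 2 0 genes were left, and 2255 and 2453 had an unadjusted p under 0.05. Without DMSO distal replicates 2 or 3 or DMSO proximal replicate 3 it called 1, 8 and 2 genes. In the 6 vehicle libraries alone, edgeR called 0 genes whichever library was left out, while the genes at an unadjusted p under 0.05 went from 1906 to 3365 without DMSO proximal replicate 1 and to 1187 without DMSO distal replicate 3. The 3365 genes were again near balance, 1672 higher and 1693 lower. Leaving out any other library gave fewer higher than lower genes. The share that was higher went from 47.1% without DMSO distal replicate 2 down to 40.9% without DMSO proximal replicate 2, with 703 higher against 1014 lower.

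**Figure D5:**
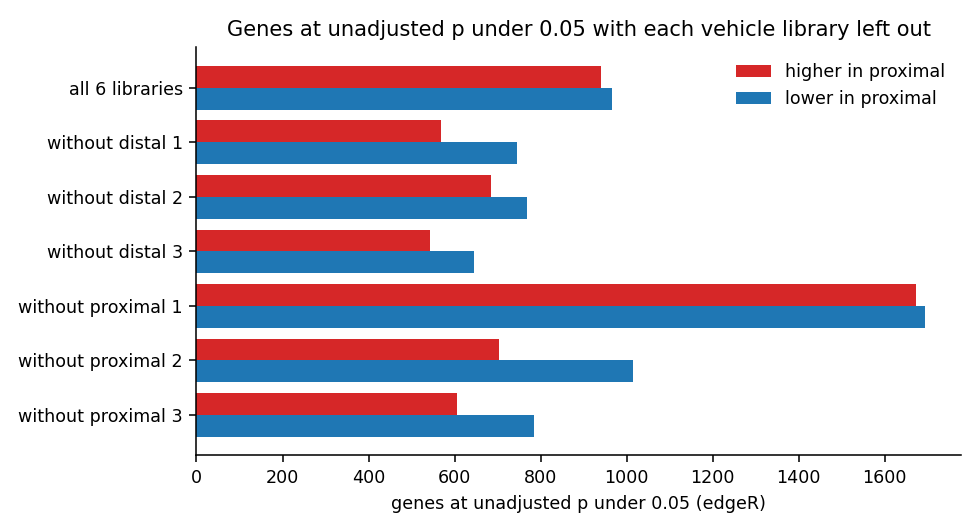
Number of genes at an unadjusted p under 0.05 (edgeR quasi-likelihood test), higher (red) and lower (blue) in proximal blastemas, with all 6 vehicle libraries and with each left out in turn. The count is highest without DMSO proximal replicate 1, at 1672 and 1693, and lowest without DMSO distal replicate 3, at 542 and 645.

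The 372 genes were chosen without DMSO proximal replicate 1, so its levels in them are a measurement apart from that choice. On a scale from 0 at the distal mean to 1 at the mean of DMSO proximal replicates 2 and 3, its median position was 0.174, at 0.196 for the 182 higher and 0.163 for the 190 lower genes. It was nearer to the proximal mean in 82 of the 372 genes (22.0%). In 130 genes it lay within the range of the 3 distal libraries, in 205 beyond that range on the proximal side and in 37 beyond it on the other side. These counts were not taken over all genes tested, so they have no background share to be read against. The 372 genes were fitted on the libraries that set both ends of this scale, which widens the distance between them, so no test is given. The higher genes had a median absolute log2 fold change of 0.95 and the lower genes of 2.05, and 24 of the 182 and 98 of the 190 differed by over 4-fold. In this choice too, the genes lower in proximal blastemas differed by more. The vehicle libraries behind it were also used above, so this is no separate evidence. These fold changes were not split by level.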

How the data were processed

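RNA was sequenced from pools of blastemas, per the labels' protocols, with libraries for 150-bp reads. Per the submitters' processing notes, Trimmomatic 0.38 and Salmon 0.13.1 were used; the index, annotation release and filters are not given in the sources used here. The table deposited by the authors holds estimated counts (expected counts) per gene identifier, 1 column per library. Of its 15 library columns, 3 match no sample in the labels and were not used. Groups and replicate numbers come from the titles.

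Estimated counts were rounded. Identifiers beginning AMEX60DD but not AMEX60DDU were filtered with filterByExpr and scaled with TMM, and tested with edgeR 4.0.16 (glmQLFit, glmQLFTest; R 4.3.3) on 6 libraries, with library sizes summed over these identifiers. The standard error of a log2 fold change was derived from its size and the F statistic. Printed CPM values use TMM factors over the 12 libraries. Alternatives used limma 3.58.1 and DESeq2 1.42.0. The scripts were tested on simulated counts. The comparison, the alternatives and the rule for identifiers were chosen with earlier results of these data known. Planned lists of patterning, retinoic acid and cell type genes could not be applied without gene names. Totals per library are in the text, and precision is limited by 3 pools a group.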

Additional observations from a re-analysis of the deposited data

How the results depend on the processing

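In the 6 vehicle libraries 0 genes were called under 14 of the 16 alternatives: limma voom with sample quality weights, and edgeR with DESeq2 size factors, a robust fit, no low-count filter, a mean of at least 10 counts, all identifiers, library sizes over all identifiers, the replicate block and each library left out. The exceptions were the DESeq2 Wald test, with 295 genes (123 higher, 172 lower), and all 12 libraries in the fit, with 25 (11 higher, 14 lower) and 3223 at an unadjusted p under 0.05 in place of 1906. Leaving out a library gave 1187 to 3365 genes at an unadjusted p under 0.05, with 19365 to 20279 genes tested. It gave 5159 to 7812 genes without overlap, in place of 3802 of 18160. Fewer libraries overlap less often by construction, and the highest value was that without DMSO proximal replicate 1. In the fit of 12 libraries, alternatives chosen after the data were seen gave 10 genes with the replicate block (8 of the 25), 5 with all identifiers (4 of the 25), 538 with the DESeq2 Wald test, and 0 to 372 with a vehicle library left out. The cause was not tested.

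The labels do not say whether replicate numbers pair the libraries, and the values did not settle it. Deviations from the group means correlated at 0.13, 0.21 and 0.03 for same-numbered libraries, only 2 of them over the threshold of 0.1 set for pairing. Their mean was 0.12, against -0.06 for different numbers, and 5 of 6 libraries correlated best with their own number. Deviations cancel within each group, so a positive mean for same numbers pulls the mean for different numbers down. The value of -0.06 is thus no separate baseline. With the replicate block edgeR called 0 genes in the 6 libraries, with 2067 at an unadjusted p under 0.05. The log2 fold changes of the 4 genes given by identifier kept their direction under all 16 alternatives each, with adjusted p values up to 0.357. These genes were chosen for groups that do not overlap, which makes a kept direction likely, so it is no separate check. They passed 0.05 with the DESeq2 Wald test, and AMEX60DD012191 and AMEX60DD046850 also in the fit of 12 libraries. With limma voom the unadjusted p was 0.00231 for AMEX60DD012191 and 0.00625 for AMEX60DD011241. For AMEX60DD024290 and AMEX60DD046850 the limma voom unadjusted p was 4.10e-05 and 4.33e-05.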

Other observations

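Genes with consecutive identifier numbers tended to differ in the same direction between amputation levels. Among 7572 pairs of tested genes with consecutive numbers, 4084 (53.9%) had log2 fold changes of the same sign. Where both members had an unadjusted p under 0.05, 104 of 133 pairs (78.2%) did, and where neither had, 3226 of 6140 (52.5%). The pairs share libraries, and pairs that follow each other share a gene, so the pairs are not separate units. Whether consecutive genes share reads was not tested. The sources used here do not state what the order of the numbers stands for.

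Identifiers beginning AMEX60DDU, which were left out of the comparison, varied far more between pools. Fitted by themselves on the 6 vehicle libraries, 14068 of them gave a common biological coefficient of variation of 1.16, against 0.451 for the identifiers used. The identifiers were not matched for level, so spread that goes with low counts was not set apart. The edgeR quasi-likelihood test called 0 of them, with 247 (1.76%) at an unadjusted p under 0.05 and a lowest adjusted p of 0.436, and no other tool was run on them alone.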
